A study of Ovis aries with 6 samples.

Results

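Messenger RNA of 9 genes of the bone morphogenetic protein (BMP) pathway was read in single cells of sheep ovaries. The 9 genes are the ligands BMP2, BMP4, BMP6 and BMP7, the target genes ID1, ID2 and ID3, and the feedback genes SMAD6 and SMAD7. They were taken as a list of symbols, and all 9 were found among the 30574 genes of the count tables. The ewes were Hu sheep in estrus, a Chinese breed kept for its large litters, and 1 whole ovary per ewe was digested to single cells and sequenced as 1 library. Ewes of the HLS group (n = 3) had litters of 3 or more lambs, and ewes of the LLS group (n = 3) had litters of fewer than 2. No treatment was given to either group, and the genotype of the ewes at the known fecundity genes was not given in the sources used here. Each group therefore stands for 3 animals at a single stage of the cycle, and litter size cannot be told apart from anything else that set these 3 ewes apart.

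BMP ligands are secreted dimers that bring type I and type II receptor kinases together, and the type I receptor then phosphorylates SMAD1, SMAD5 and SMAD9, which enter the nucleus with SMAD4. ID1, ID2 and ID3 are direct targets of this step and encode proteins that bind basic helix-loop-helix transcription factors and keep them off DNA. SMAD6 and SMAD7 are inhibitory SMADs, which are induced by the pathway and shut its receptors down, SMAD6 mainly for BMP and SMAD7 for TGF-beta as well. In the ovary the pathway is known for its action on granulosa cells (GCs) and theca cells, and sheep carry well known mutations in it that change the ovulation rate. In blood and lymphatic vessels it acts through the receptor ACVRL1 and the co-receptor ENG.

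Of 52290 barcodes, 36457 cells were retained, 5189 to 7096 per ewe, with a median of 5273 to 9871.5 unique molecular identifiers (UMIs) per cell and 30 clusters. In 297 cases the same barcode sequence occurred in 2 libraries, of which 142 were retained in both. Counts were summed per ewe and cell type and are given as CPM, the UMIs of a gene scaled to a common total per sum, so the ewe was the replicate throughout. The main types were called endothelial-like (15207 cells), stromal-like (8349), granulosa-like (3292), immune-like (2616), perivascular-like (2604) and theca-like (1610) from marker genes. Neither the 9 genes nor the 69 other pathway genes listed for this report were used to form the clusters. FST and AMH, which name GCs, were not on that list and were not kept out. The summed level of the endothelial markers was 3624 to 5436 CPM in endothelial-like cells and at most 890.0 CPM in the other main types, and the theca markers summed to 1883 to 3515 CPM in theca-like cells and to at most 379.5 CPM elsewhere. Stromal markers were also present in theca-like cells (3008 to 5124 CPM, against 11588 to 30992 CPM in stromal-like cells). HLS2 and LLS1 stood apart: 60.2% and 68.3% of their endothelial-like cells fell in a cluster led by COL15A1, SLCO2A1 and ESM1, which held 0.7% to 2.4% of those of the other ewes. The 597 and 461 cells of 2 clusters named cycling, outside all main types, also had COL15A1 or ESM1 among their leading genes. LLS1 held 50.9% and 43.4% of them. A further cycling cluster of 685 cells was outside the main types as well. LLS2 also differed in makeup. Of its endothelial-like cells, 12.2% fell in a cluster with STC1 and NDRG1 among its leading genes, against 0.06% to 1.4% in the other ewes. Of its stromal-like cells, 44.7% fell in the cluster led by SERPINF1 and DPT, against 11.2% to 16.2%. Some results that rest on HLS2 and LLS1 are given also without both of these ewes. Those of endothelial-like cells against the other main types are not given so for single genes.

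Among the ligands, BMP2 had its highest mean levels in perivascular-like cells and GCs, in the latter through 1 of 4 clusters. In perivascular-like cells, which wrap the vessels, BMP2 was at 10.4, 40.5, 38.1, 23.8, 35.6 and 41.0 CPM in HLS1, HLS2, HLS3, LLS1, LLS2 and LLS3. In GCs it was at 29.7, 10.6, 45.9, 14.6, 37.8 and 24.1 CPM in the same order of ewes, and these levels overlapped (edgeR quasi-likelihood test, adjusted p = 0.703). The other main types lay lower, at 10.6 ± 3.23 CPM in endothelial-like, 9.81 ± 3.71 in stromal-like, 7.25 ± 3.17 in theca-like and 1.51 ± 1.16 in immune-like cells (mean ± SD, n = 6 ewes). Compared with the mean of the 5 other main types, BMP2 was higher in perivascular-like cells by 1.78 ± 0.23 (log2 fold change ± SE) and in GCs by 1.61 ± 0.22, and lower in immune-like cells by a log2 fold change of -2.97 ± 0.43. Without that 1 cluster, which had the weakest granulosa marker score, GCs did not pass the test (0.0074, adjusted p = 0.985 in edgeR), a setting chosen after the data were seen.

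BMP4, a ligand best known in the ovary from theca cells, was highest in endothelial-like cells here. It was at 44.0, 14.1, 44.8, 15.9, 41.9 and 47.8 CPM in HLS1, HLS2, HLS3, LLS1, LLS2 and LLS3, so that HLS2 and LLS1 lay far below the other ewes. In perivascular-like cells it was at 15.7 to 25.6 CPM, in stromal-like cells at 12.6 to 18.9, in theca-like cells at 7.14 to 13.4, in GCs at 2.94 to 10.6 and in immune-like cells at 1.73 to 6.50. The step from endothelial-like to perivascular-like cells passed the test (0.86 ± 0.26, adjusted p = 0.00578), although in HLS2 and LLS1 the perivascular-like level was the higher one. The next steps, from perivascular-like to stromal-like and on to theca-like cells, did not pass it.

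BMP6, a ligand best known for the control of iron and also made in the follicle, was at 5.80, 5.67, 7.26, 6.72, 10.9 and 8.33 CPM in endothelial-like cells. It lay in the same range in stromal-like (3.56 to 14.8 CPM) and theca-like cells (2.86 to 12.0 CPM), and none of the steps between these 3 types passed the test. Lymphatic endothelial-like cells, described below, held 347 of the 1061 BMP6 UMIs of endothelial-like cells. The other endothelial-like cells had 4.84 CPM with all ewes pooled, against 6.62 in stromal-like and 4.95 in theca-like cells. LLS1 was the highest ewe in both stromal-like and theca-like cells. In GCs BMP6 was at 0.376 to 2.15 CPM and in immune-like cells at 0.313 to 2.10 CPM. In the former the log2 fold change against the mean of the other main types was -1.52 ± 0.33.

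BMP7 was near the limit of detection in most cells. Theca-like cells held 1.76, 4.30, 2.11, 0.921, 1.43 and 3.91 CPM, from 1 to 26 UMIs per ewe. Endothelial-like cells held 0.472, 1.30, 1.74, 1.42, 8.07 and 1.42 CPM, and LLS2 was far above the other 5 ewes. The remaining 4 main types stayed at or below 0.834 CPM in every ewe, and BMP7 did not pass the filter on low counts for the tests between main types, so 8 of the 9 genes were tested there.

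**Figure D1:**
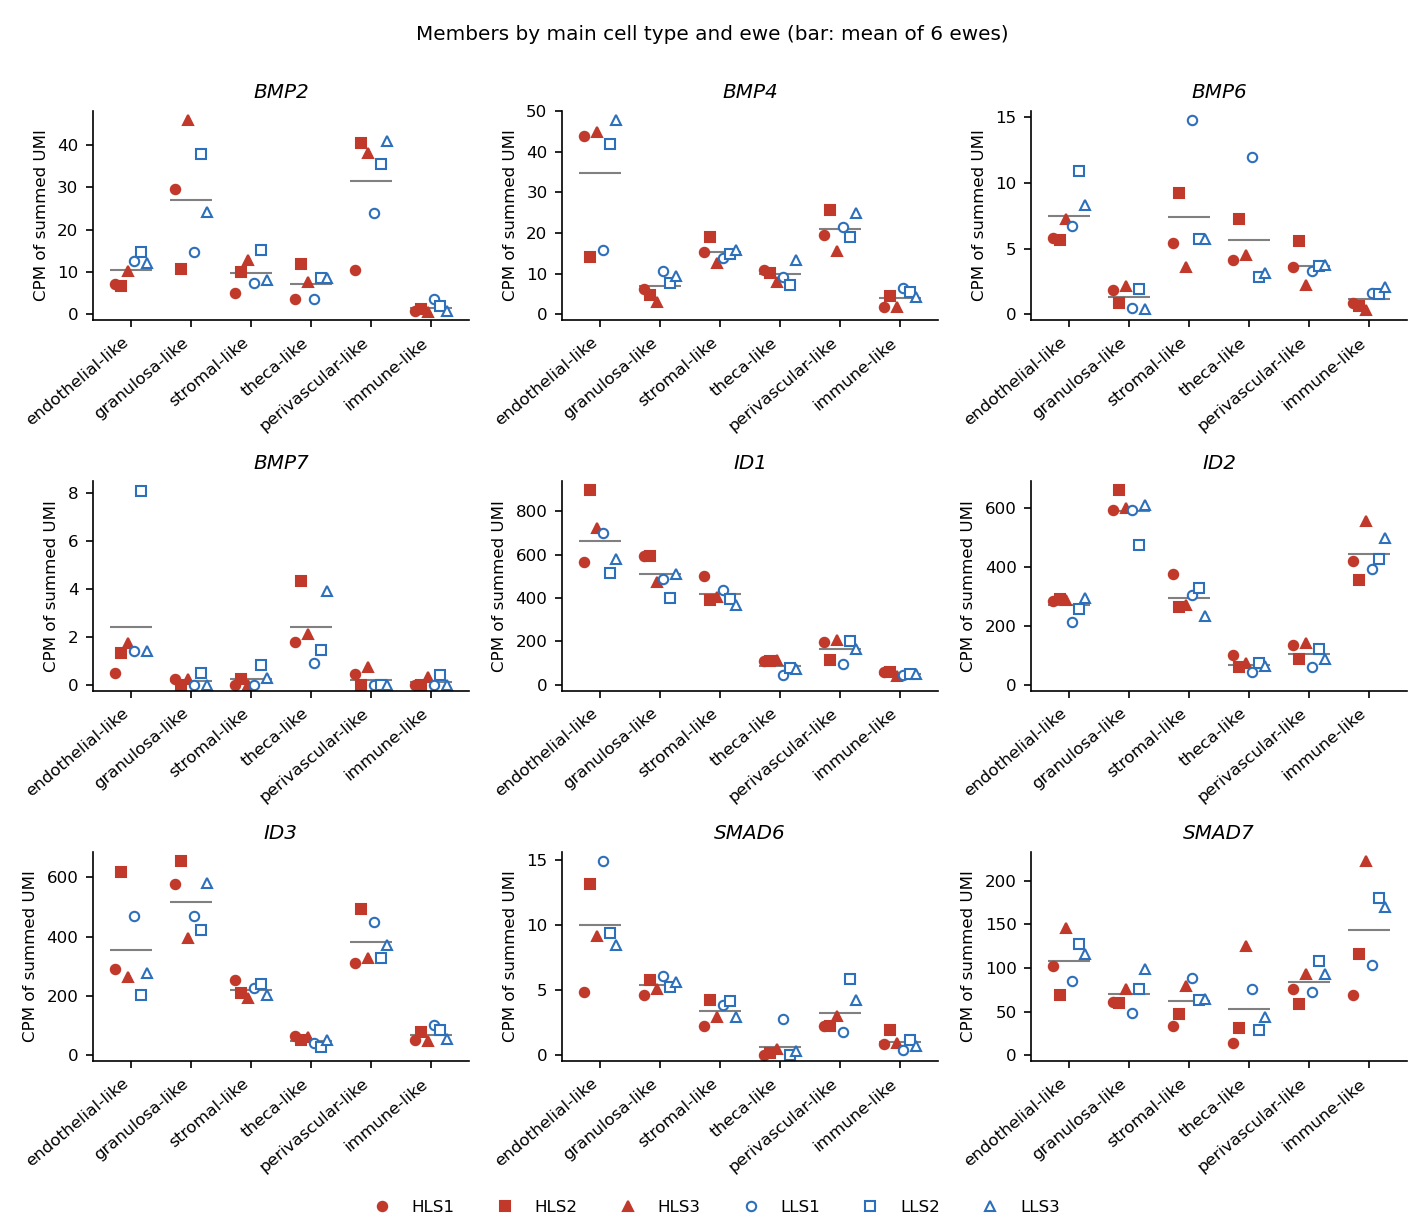
Level of each of the 9 genes in the 6 main types. The y axes give CPM of the summed UMIs, each point is 1 ewe (filled, HLS; open, LLS) and the bar is the mean of 6 ewes; BMP4 in endothelial-like cells splits into 4 ewes at 41.9 to 47.8 CPM and HLS2 and LLS1 at 14.1 and 15.9 CPM.

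The target gene ID1 was highest in endothelial-like cells, at 568, 896, 722, 697, 516 and 581 CPM in HLS1, HLS2, HLS3, LLS1, LLS2 and LLS3. GCs followed with 591, 592, 474, 487, 397 and 511 CPM, and the step between them passed the test (0.54 ± 0.16, adjusted p = 0.0036), with the endothelial-like level the higher one in 5 of 6 ewes. Stromal-like cells held 369 to 499 CPM. The step from GCs to them did not pass the test (0.21 ± 0.16, adjusted p = 0.298 in edgeR), although GCs were higher in 6 of 6 ewes. Below a step of 1.47 ± 0.17 came perivascular-like (95.9 to 205 CPM), theca-like (44.2 to 112 CPM) and immune-like cells (42.0 to 58.9 CPM). Theca-like cells thus held less ID1 than stromal-like cells in every ewe, and the ranges did not overlap.

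ID2, which is also needed by lymphocytes, was highest in GCs and immune-like cells. GCs held 595, 662, 601, 596, 475 and 612 CPM and immune-like cells 422, 357, 558, 394, 429 and 499 CPM, with GCs higher in 6 of 6 ewes but an adjusted p of 0.631 in edgeR after scaling by TMM factors, which correct for differences in RNA composition. On the other side of the next step (0.84 ± 0.15) were stromal-like (235 to 377 CPM) and endothelial-like cells (214 to 293 CPM). Perivascular-like and theca-like cells were lowest, at 59.8 to 140.3 and 42.4 to 100.3 CPM. Immune-like cells were therefore high in ID2 while they were the lowest of the main types for ID1.

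ID3 was highest in GCs, at 578, 656, 394, 471, 422 and 580.1 CPM. Perivascular-like cells held 312 to 494 CPM and, unlike for ID1 and ID2, were close to endothelial-like cells (292, 619, 265, 469, 202 and 278 CPM; adjusted p = 0.935). The 2 highest endothelial-like levels were again those of HLS2 and LLS1. Stromal-like cells followed at 192 to 255 CPM, and immune-like (49.2 to 102 CPM) and theca-like cells (27.9 to 64.0 CPM) were lowest.

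Of the feedback genes, SMAD6 was highest in endothelial-like cells at 4.85, 13.1, 9.16, 14.9, 9.34 and 8.45 CPM. GCs had 4.64 to 6.04 CPM, with little spread between ewes, and the difference passed the test (0.98 ± 0.23, adjusted p = 0.000501). In theca-like cells 9 UMIs of SMAD6 were counted in all ewes together, with 0 in HLS1 and LLS2, where a count of 0 allows up to 0.587 and 2.14 CPM. SMAD7 was at 69.3 to 223 CPM in immune-like, 68.9 to 146 in endothelial-like, 58.3 to 108 in perivascular-like, 47.8 to 99.3 in granulosa-like, 33.1 to 89.1 in stromal-like and 13.9 to 126 in theca-like cells, and none of the 5 steps between neighbours passed the test, although types farther apart in this order did differ (theca-like against immune-like cells by a log2 fold change of -1.70 ± 0.26). HLS3 was the highest ewe for SMAD7 in endothelial-like, theca-like and immune-like cells.

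Over the 8 genes tested, 20 of 40 steps between neighbouring types passed the test, and over all 15 pairs of types 96 of 120 tests passed, where 57.5% of all tests on all genes did. In endothelial-like cells 7 of 8 genes were higher than the mean of the other main types and none was lower. Of all 14529 genes tested, 35.1% were higher and 67.4% differed in either direction. Higher than this mean is not highest of all: ID2 and ID3 had higher mean levels in GCs, and SMAD7 in immune-like cells. The counts for the other main types below are against the same kind of mean. ID1 (2.00 ± 0.11), SMAD6 (2.45 ± 0.18) and BMP4 (1.85 ± 0.18) differed most, and BMP2 did not pass the test (0.13 ± 0.23). The calls for ID2 (0.33 ± 0.11) and SMAD7 (0.56 ± 0.18) were the weakest: the former was lost without HLS2 or LLS3 and the latter without HLS1. The median of the 8 genes was 1.19 on the log2 scale, against 0.00 for all genes.

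In GCs 5 of 8 were higher and 2 lower, with 27.7% of all genes in each direction and 55.4% in either (50.04% of all calls were higher, and 63.4% without TMM factors). ID3, ID2, ID1, SMAD6 and BMP2 were higher by 1.28 to 1.61, and BMP4 and BMP6 were lower (-1.25 and -1.52). In theca-like cells the pattern was the opposite one for the targets: 5 of 8 were lower, where 33.5% of all genes were (63.4% in either direction), with SMAD6 at -3.15 ± 0.39, ID3 at -2.22 ± 0.18, ID2 at -2.03 ± 0.14, ID1 at -1.49 ± 0.14 and SMAD7 at -0.83 ± 0.21, while BMP6 alone was higher (0.80 ± 0.27, adjusted p = 0.0107; 29.9% of all genes were higher). The mean level of BMP6 in theca-like cells, 5.64 CPM, lay below those of endothelial-like (7.44 CPM) and stromal-like cells (7.41 CPM). Without HLS2 the call for BMP6 was lost (adjusted p = 0.0632 in edgeR), as it was without both HLS2 and LLS1.

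In immune-like cells 6 of 8 were lower and 2 higher, with 34.5% and 33.2% of all genes lower and higher and 67.7% in either direction (49.0% of all calls were higher, and 34.9% without TMM factors). ID2 (1.40 ± 0.11) and SMAD7 (1.21 ± 0.18) were the 2 higher ones, and the 3 ligands, ID1, ID3 and SMAD6 were lower by 1.33 to 2.97. Immune-like cells of all ewes together held 20 UMIs of BMP2, 14 of BMP6 and 12 of SMAD6, so these levels lie near the limit of detection. In perivascular-like cells BMP2, ID3 (0.99 ± 0.14) and BMP4 (0.82 ± 0.22) were higher and ID2 (-1.58 ± 0.13) and ID1 (-0.67 ± 0.14) lower, 3 and 2 of 8 genes, where 24.7% and 24.0% of all genes were and 48.7% in either direction (50.8% of all calls were higher, and 69.0% without TMM factors). In stromal-like cells ID1 (1.10 ± 0.12), BMP6 (1.13 ± 0.23), ID2 and SMAD6 were higher and SMAD7 lower, 4 and 1 of 8 genes against 26.1% and 24.3% of all genes and 50.4% in either direction. Only the calls for ID1 and BMP6 held there in every setting tried: those for ID2, SMAD6 and SMAD7 were each lost or turned in 3 or more of them. The types were drawn from other genes of the same cells. These p-values therefore only set the size of a difference against the spread left over the 6 ewes and all types in the fit.

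Cells with at least 1 UMI of a gene mostly followed the levels. For ID2 the share was slightly higher in immune-like cells, while the level was higher in GCs. After every cell was thinned to 1000 UMIs, ID1 was counted in 38.9% of endothelial-like and in 6.18% of immune-like cells, the type with the lowest share, and ID2 in 33.2% of immune-like and 32.1% of granulosa-like cells but 5.42% of theca-like cells. BMP4 was counted in 3.32% of endothelial-like cells and in 0.26% of immune-like cells, and BMP2 in 2.70% of perivascular-like cells and 0.10% of immune-like cells. Without thinning the shares for ID1 were 81.9% and 16.5%, at median depths of 8511 and 3055 UMIs per cell.

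The clusters of the endothelial-like cells differed in their levels of BMP4, BMP2 and SMAD6. BMP4 was at 53.0, 39.2, 51.5, 59.2, 63.3 and 61.2 CPM in the cluster led by CA4 and ABCG2, and at 32.6 to 52.1 CPM in the one led by CXCL9 and SELP, an adhesion receptor of venules. In the cluster led by COL15A1, SLCO2A1 and ESM1 it was at 3.43 to 12.8 CPM in the 5 ewes with 10 or more cells there, also in HLS2 (6.79) and LLS1 (6.57). The low BMP4 of HLS2 and LLS1 over all their endothelial-like cells thus went with the share of this cluster, while within the CA4 cluster LLS1 (59.2) lay close to the other LLS ewes and HLS2 (39.2) was the lowest of all.

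BMP2 had another place. It was at 36.4, 24.8, 66.0, 17.8, 39.7 and 55.3 CPM in the cluster led by GJA5 and CXCL12, genes known from arteries, and at 2.09 to 5.83 CPM in the CA4 cluster, with no overlap between them. SMAD6 was at 16.2, 36.2, 36.0, 40.7, 19.2 and 24.2 CPM in the GJA5 cluster, against 3.08 to 5.94 CPM in the CA4 cluster and 13.0 to 15.3 CPM in the COL15A1 cluster. For ID1 the GJA5 cluster of HLS2 and LLS1 reached 1196 and 947 CPM, where the other 4 ewes had 539 to 698 CPM. ID3 showed the same 2 ewes apart in the GJA5 cluster (663 and 493 CPM, against 171 to 283) and in the COL15A1 cluster (734 and 512 CPM, against 343 to 378), but not in the CA4 cluster (286 and 254 CPM, against 249.7 to 357). These clusters were formed from the same cells and are described without a test.

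**Figure D2:**
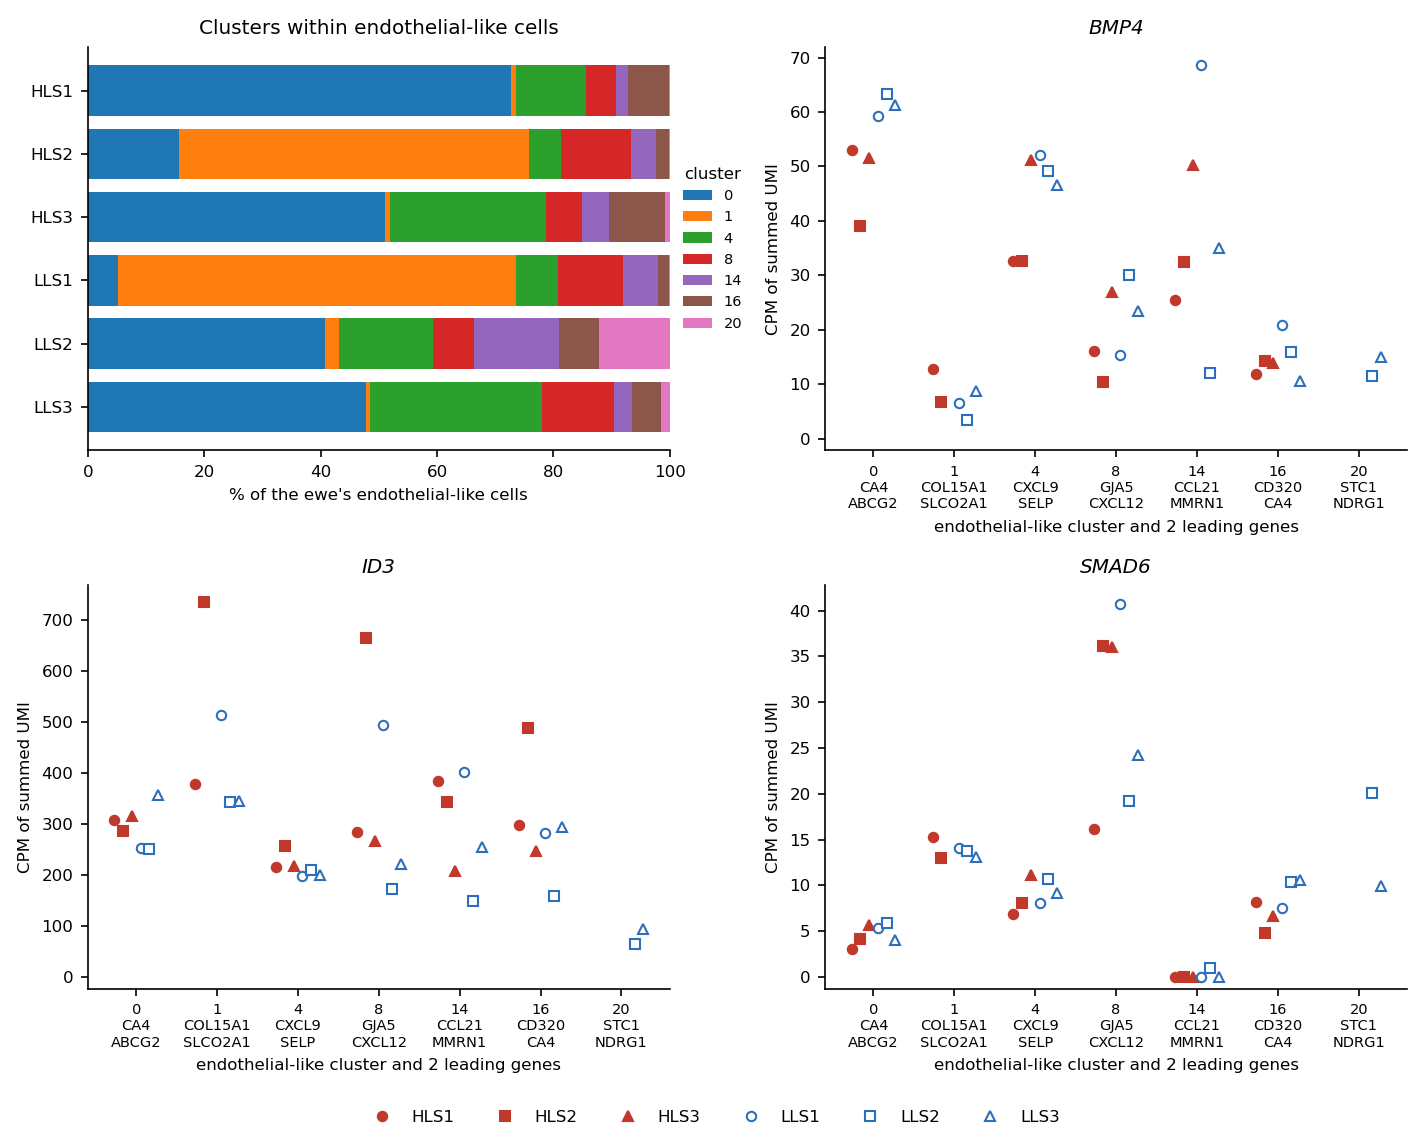
Endothelial-like clusters. The bars give the share of each ewe's endothelial-like cells in each cluster (%), and the other panels the CPM of BMP4, ID3 and SMAD6 per cluster and ewe (filled, HLS; open, LLS; at least 10 cells); BMP4 is at 39.2 to 63.3 CPM in cluster 0 and 3.43 to 12.8 CPM in cluster 1, and SMAD6 is at or near 0 in cluster 14, the lymphatic one.

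Lymphatic endothelial-like cells (786 cells, 50 to 228 per ewe) were compared with the other, blood endothelial-like cells. Their lymphatic markers, among them PROX1 and CCL21, summed to 7493 to 20619 CPM, against 246 to 639.7 CPM in blood endothelial-like cells. Cycling markers summed to 88.7 to 1016 CPM in lymphatic and to 42.6 to 76.4 CPM in blood endothelial-like cells, with no overlap. The clusters named cycling lay outside both classes, and the part of cycling cells in the differences below was not tested. BMP2 was at 57.4, 39.5, 26.1, 79.4, 54.2 and 68.6 CPM in the lymphatic cells of HLS1, HLS2, HLS3, LLS1, LLS2 and LLS3, and at 5.39 to 10.6 CPM in the blood ones. BMP6 was at 67.0, 108, 50.2, 63.1, 19.6 and 35.1 CPM against 1.93 to 9.95 CPM. For both ligands the lymphatic cells were higher in 6 of 6 ewes and the ranges did not overlap.

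BMP7 was at 38.3, 32.5, 38.1, 28.0, 83.1 and 54.2 CPM in lymphatic cells, where 251 UMIs were counted, and at 0 to 0.247 CPM in blood cells, where 12 UMIs were counted among 147465615. The pooled ratio was 533 (95% interval 299.7 to 1045, counting error only). LLS2, whose BMP7 stood apart over all endothelial-like cells, had both the highest level in lymphatic cells and the largest share of them (14.6% of its endothelial-like cells, against 2.1% to 6.0%). BMP7 passed the filter on low counts only through the lymphatic cells, so it had to differ.

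SMAD6 went the other way. Lymphatic cells held 1 UMI among 5788101, in LLS2, and blood endothelial-like cells 1632, at 4.91, 13.6, 9.53, 15.7, 10.2 and 8.67 CPM. The ratio of lymphatic to blood was 0.0156 (95% interval 0.000395 to 0.0871, counting error only). In single ewes a count of 0 allows up to 1.40 to 9.57 CPM in lymphatic cells, so the difference shows in the pooled counts and in the ewes with more cells. SMAD7 was at 31.9, 16.7, 60.2, 20.6, 45.8 and 54.2 CPM in lymphatic and at 70.8 to 149.7 CPM in blood cells, lower in 6 of 6 ewes.

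BMP7 and SMAD6 passed the filter through only 1 of the 2 classes and are left out of the count. Of the other 7 genes, 2 were higher and 3 lower in lymphatic cells in the paired test over the 6 ewes, where 16.4% and 18.8% of 12336 genes were and 35.2% in either direction (46.5% of all calls were higher, and 57.5% without TMM factors). The log2 fold changes were 2.54 ± 0.21 for BMP2, 3.30 ± 0.49 for BMP6 and -1.76 ± 0.15 for SMAD7, with adjusted p of 8.46e-07, 0.000172 and 1.65e-06 in edgeR. ID1 (-0.29 ± 0.10) and ID3 (-0.42 ± 0.13) passed narrowly (adjusted p = 0.0475 and 0.0244), and both calls were lost without TMM factors and without HLS2, for ID3 also without LLS2, and for ID1 without any of HLS1, LLS1, LLS2 or LLS3. ID2 did not pass (0.08 ± 0.17). BMP4 did not pass over 6 ewes (0.21 ± 0.44): it was higher in lymphatic cells in HLS2, HLS3 and LLS1 and lower in the others. Without HLS2 and LLS1 it was lower in lymphatic cells (-0.84, adjusted p = 0.0169), a setting chosen after the data were seen.

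**Figure D3:**
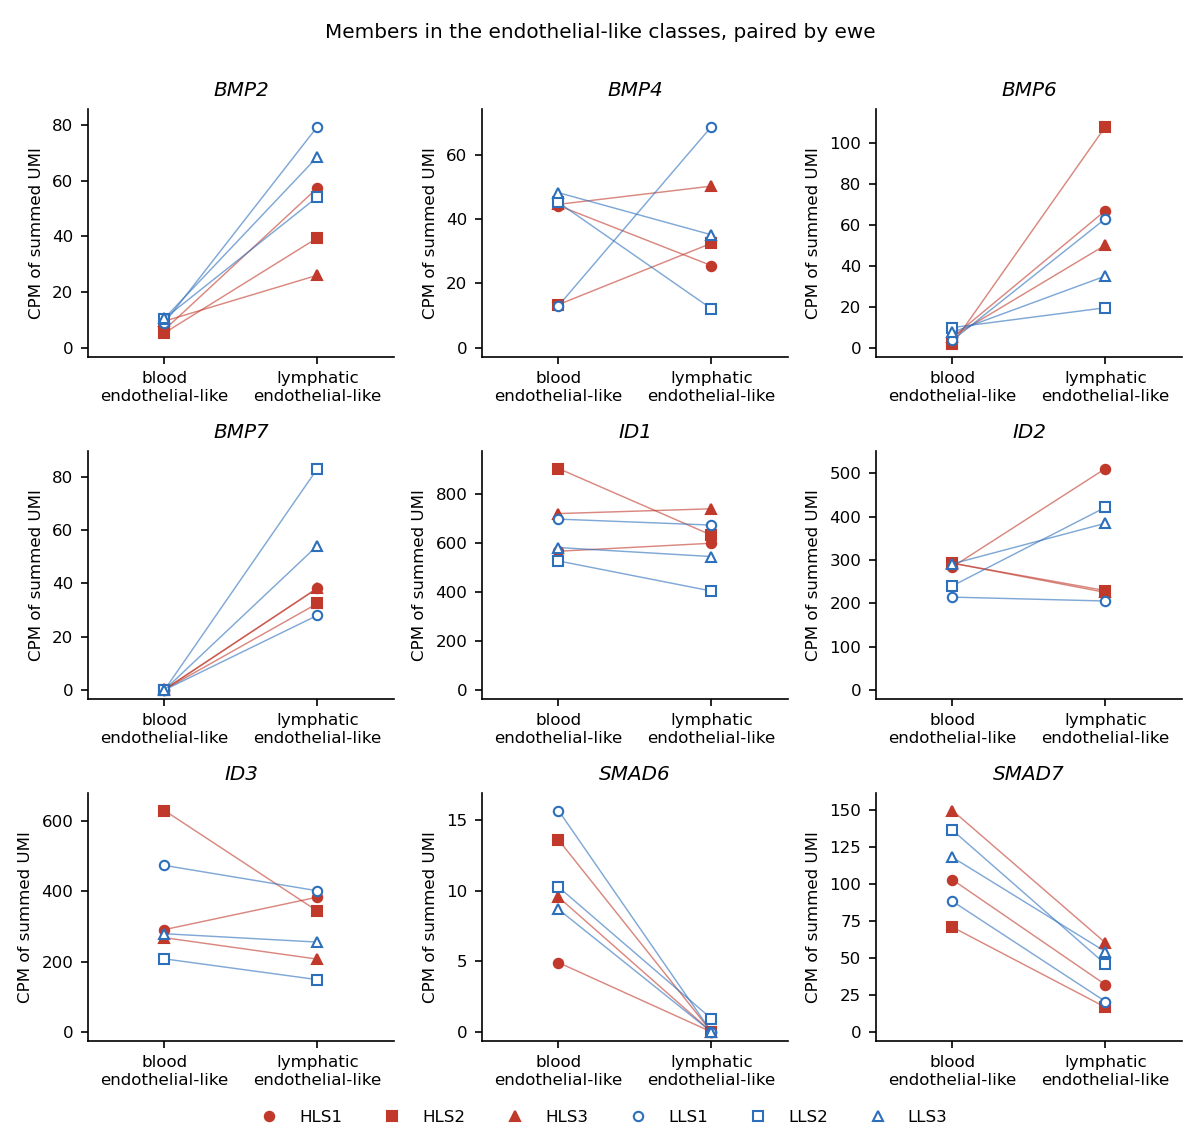
The 9 genes in blood and lymphatic endothelial-like cells. The y axes give CPM of summed UMIs and each line joins the 2 classes of 1 ewe (red, HLS; blue, LLS); BMP2, BMP6 and BMP7 go up and SMAD7 goes down in all 6 ewes, BMP4 goes either way, and SMAD6 is at 0 in the lymphatic cells of 5 ewes, which in HLS1 allows up to 9.57 CPM against 4.91 CPM in blood cells.

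Among perivascular-like cells, pericyte-like (1492) and smooth muscle-like cells (1112) differed in 3 of the 6 genes that could be tested. BMP2 was at 17.9, 47.3, 52.8, 51.1, 54.2 and 58.4 CPM in smooth muscle-like and at 8.79, 38.1, 16.6, 18.9, 30.9 and 37.1 CPM in pericyte-like cells, higher in the former in 6 of 6 ewes (0.99 ± 0.21, adjusted p = 0.000967). ID3 was at 126 to 236 CPM in smooth muscle-like and at 347 to 614 CPM in pericyte-like cells, with no overlap (-1.29 ± 0.17). BMP4 was lower in smooth muscle-like cells in 6 of 6 ewes (-0.91 ± 0.28, adjusted p = 0.0142), but it did not pass without HLS3 (adjusted p = 0.0503) or without both HLS2 and LLS1 (adjusted p = 0.104). Of the 7643 genes tested, 20.5% were higher and 20.3% lower, 40.8% in all, against 1 and 2 of these 6. ID1 (-0.02 ± 0.19) and ID2 (0.18 ± 0.20) moved either way between ewes. Stromal markers summed to 3147 to 9263 CPM in pericyte-like and to 1456 to 2251 CPM in smooth muscle-like cells. Theca markers summed to 86.4 to 221 and 10.8 to 54.0 CPM, and endothelial markers to 145 to 509 and 147 to 357 CPM. Cycling markers summed to 148 to 955 and 40.8 to 94.6 CPM, with no overlap. The part of all these markers in these differences was not tested.

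Among immune-like cells, macrophage-like cells (956) held less ID1 than T cell-like cells (1660), with at most 53.8 CPM against at least 46.9 CPM (-1.15 ± 0.22, lower in 6 of 6 ewes). ID2 was also lower (-0.68 ± 0.13), with 336 to 423 CPM against 393 to 730.1 CPM. SMAD7 was higher in macrophage-like cells in 5 of 6 ewes (0.89 ± 0.20), at 69.2, 159, 275, 122, 214 and 217 CPM against 69.4, 39.0, 167, 46.6, 117 and 86.3 CPM. These are 1 higher and 2 lower of the 4 genes tested, where 29.7% and 29.3% of 7448 genes were and 59.0% in either direction. Stromal markers summed to 147 to 287 CPM in macrophage-like and to 316 to 870.1 CPM in T cell-like cells, and perivascular markers to 64.0 to 143 and 183 to 328 CPM, with no overlap. Their part in these differences was not tested.

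GCs fell into 4 clusters, and the high BMP2 of GCs was found in 1 of them. In the cluster led by GCG, TIMP1 and HTRA3, which held 10.4% to 58.6% of the GCs of an ewe, BMP2 was at 38.3, 37.8, 141, 19.6, 55.6 and 66.0 CPM. In the clusters led by NMB and IL17RB and by NMB and INHA it was at 3.46 to 16.6 and 3.04 to 17.4 CPM, and in the small cluster led by FST and INHA, which also held the proliferation genes UBE2C and TOP2A, at 0 to 8.23 CPM. SMAD7 followed the same cells, at 75.1, 159, 199, 80.2, 117 and 255 CPM in the GCG cluster against 24.6 to 53.9 CPM in the cluster led by NMB and IL17RB. This cluster had the weakest granulosa marker score of the 4. It held FSHR at 84.8, CDH2 at 297, FOXL2 at 63.9, INHBA at 133 and CYP11A1 at 312 CPM, but AMH at 5.90 CPM. The study named mural GCs, a subtype, by FSHR, IGFBP5 and CYP11A1 among other genes, and gave HTRA3 as their marker. IGFBP5 was at 4809 and HTRA3 at 511 CPM in this cluster. INHA was at 12.6 CPM and FST at 40.9 CPM there, against 311 to 1096 and 340.3 to 2186 CPM in the other 3 clusters, HSD17B1 was at 15.3, TNNI3 at 14.5 and IHH at 0.536 CPM, and CYP19 was not counted. Without this cluster the call for BMP2 in GCs was lost and SMAD7 was lower (-1.50), while ID1, ID2, ID3 and SMAD6 kept their calls.

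Among the clusters of GCs other than the GCG cluster, ID1 and ID3 were lowest in the one led by NMB and INHA. Their levels in the GCG cluster are not given here, nor are those of ID2 by cluster. ID1 was at 743, 467, 998, 1064 and 718 CPM in the FST cluster of HLS2, HLS3, LLS1, LLS2 and LLS3, at 514 to 694 CPM in the cluster led by NMB and IL17RB, and at 63.8 to 195 CPM in the one led by NMB and INHA. ID3 was at 479.9 to 1055, 453 to 1035 and 140.0 to 244 CPM in the same clusters. The last of these also had the lowest depth, with a median of 2268 UMIs per cell against 7717 to 12321 in the other 3, and its part in these levels was not tested.

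In stromal-like cells ID2 split the clusters, at 328 to 488 CPM in the one led by GSTM3 and ACTA2 and 281 to 453 CPM in the one led by SERPINF1 and DPT, but 94.6 to 211 CPM in the one led by LUM and COL1A1. SMAD7 was highest in the SERPINF1 and DPT cluster (76.4 to 172 CPM, against 32.9 to 92.9 and 16.6 to 88.9 CPM). ID1 overlapped between all of them.

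Other genes of the pathway were read from a list of 69, of which 64 were in the count tables and 48 passed the filter between main types. FST and AMH were not on the list because they name GCs. Unlike BMP7 and SMAD6 above, list genes that passed a filter through only 1 type or class were not left out. The largest changes below, such as those of GDF10, SOST, BMP5 and GDF5, may be of this kind, and such a gene had to differ. The counts of list genes below include any such gene, so they are a description only. In endothelial-like cells 25 of the 48 were higher and 11 lower, where 35.1% and 32.3% of all genes were, with a median of 0.28. The higher ones were led by GATA2, a transcription factor of blood vessels (4.84 ± 0.19), the co-receptor ENG (4.26 ± 0.12), the receptor ACVRL1 (3.67 ± 0.14), the signalling protein SMAD1 (3.65 ± 0.12) and the target gene ATOH8 (3.47 ± 0.21). The lower ones were led by the receptors BMPR1B (-4.38 ± 0.28) and BMPR1A (-4.15 ± 0.18) and the modulators SMOC2, CHRDL1 and BMPER. The cells with the most ID1 and SMAD6 thus held ACVRL1 at 62.8 to 105 CPM but BMPR1A at 0.9 to 4.7 CPM and BMPR1B at 0.2 to 2.1 CPM.

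In GCs 15 of the 48 were higher and 18 lower, against 27.7% of all genes in each direction (median -0.16), led by the modulator SMOC1 (3.88 ± 0.33), BMPR1B (3.57 ± 0.17; 66.9 to 136 CPM), the ligand trap CHRDL1 (2.80 ± 0.30), HEY2 and FSTL3, while ACVRL1 (-2.68 ± 0.26), ENG (-2.07 ± 0.18), TCF4, SMURF1 and GATA2 were lowest. Of the 12 receptors and co-receptors tested, 3 were higher in GCs and 5 lower, and BMPR1A was at 29.4 to 77.1 CPM. Of the 10 modulators tested, 6 were higher in GCs and 1 lower. Stromal-like cells had 27 higher and 4 lower (26.1% and 24.3% of all genes; median 0.47), led by SMOC2 (4.42 ± 0.33), TMEM100 (2.95 ± 0.16), RGMA, BMPER and BMPR1A (2.26 ± 0.12), with HEY2, UNC5B, CRIM1 and FKBP1A lower.

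Theca-like cells had 5 higher and 29 lower (29.9% and 33.5% of all genes; median -0.56). The ligand GDF5 (5.93 ± 0.47) and the receptor BMPR1A (2.25 ± 0.12) led the higher ones, with TGFBR3, BMPR1B (1.01 ± 0.21) and CHRD. HEY2 (-4.03 ± 0.48), SOST, ACVRL1 (-3.21 ± 0.29), the type II receptor BMPR2 (-3.02 ± 0.16) and ENG led the lower ones, and 13 of the 15 other target genes were lower and 0 higher, like the 3 ID genes and SMAD6. BMPR2 was at 1.7 to 3.7 CPM in theca-like cells and at 37.2 to 96.2 CPM in endothelial-like cells.

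Perivascular-like cells had 24 of 48 higher and none lower (24.7% and 24.0% of all genes; median 0.50), led by the ligand BMP5 (6.24 ± 0.52), SOST (5.24 ± 0.45), HEY2, HEY1 and PMEPA1. Immune-like cells had 3 higher, namely ACVRL1, SMURF1 and SKIL, and 32 lower (33.2% and 34.5% of all genes; median -1.43), among them ID4 (-3.95 ± 0.43), TMEM100 and BMPR1A (-3.09 ± 0.22). In lymphatic against blood endothelial-like cells 9 of 38 were higher and 11 lower (16.4% and 18.8% of all genes), led by the ligand GDF10 (7.50 ± 0.76), NEO1, UNC5B, TMEM100 and SMAD1 (1.81 ± 0.25), and by SMAD9 (-3.25 ± 0.32), ENG (-2.87 ± 0.18), ID4, ACVRL1 (-1.88 ± 0.16) and ATOH8. In smooth muscle-like against pericyte-like cells the counts were 10 and 6 of 30 (20.5% and 20.3% of all genes), led by SOST (6.58 ± 0.42) and HEY2 (3.53 ± 0.23) and by ACVRL1 (-2.31 ± 0.32) and HEY1. In macrophage-like against T cell-like cells they were 7 and 6 of 18 (29.7% and 29.3% of all genes), led by ACVRL1 (1.94 ± 0.38) and by FSTL1 (-1.46 ± 0.24).

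**Figure D4:**
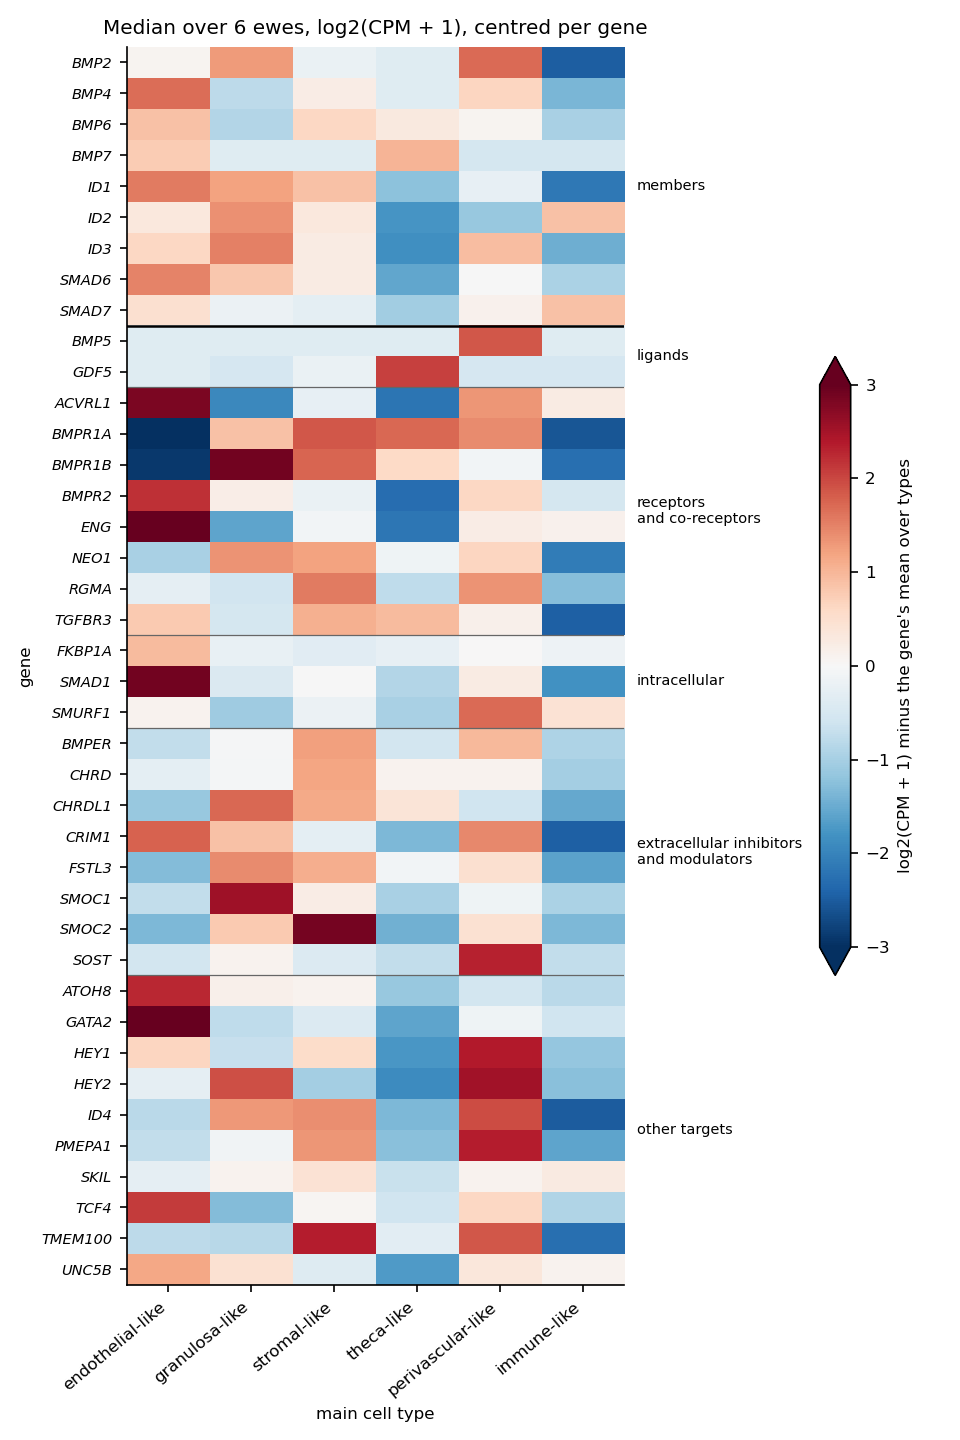
The 9 genes (top) and 31 other pathway genes that led a comparison between main types, by role. Colours give log2(CPM + 1) of the median of 6 ewes minus the mean of the gene over the 6 types; endothelial-like cells are high for ACVRL1, ENG and SMAD1 and low for BMPR1A and BMPR1B, and theca-like cells are low for most target genes.

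Between HLS and LLS ewes none of the 9 genes passed the test in any main type. In edgeR 0 of 9, 7, 8, 8, 6 and 4 genes tested passed in endothelial-like, granulosa-like, stromal-like, theca-like, perivascular-like and immune-like cells, as did 0.0% of all genes in each type. At an unadjusted p under 0.05 there was 1 gene in endothelial-like cells and 2 in theca-like cells, where 206 of 15136 and 436 of 12227 genes were, and 0 in the other types. DESeq2 also called none of them, with 2 and 2 at an unadjusted p under 0.05. These counts do not show that the genes were alike: in simulated data for the endothelial-like comparison the test recovered 21% of genes changed 2-fold and 92% of genes changed 4-fold. The simulation gave every gene the same spread, held no split such as that of HLS2 and LLS1, and changed none of the lowest expressed genes. Its shares are therefore not those of the real comparison. A difference in RNA per cell and a difference in which cells of a type were caught cannot be told apart.

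The 3 genes were BMP2, ID1 and ID3. In endothelial-like cells BMP2 was at 7.05, 6.60 and 10.3 CPM in HLS and at 12.5, 14.8 and 12.1 CPM in LLS ewes, with no overlap (-0.64 ± 0.23, unadjusted p = 0.0268 in edgeR). Without lymphatic cells the difference was -0.42 and the groups overlapped, as HLS3 then lay above LLS1. Over all endothelial-like cells BMP2 was the only gene of the 9 without overlap, in a type where 4.5% of all genes had none. In theca-like cells ID1 was at 108, 108 and 112 CPM in HLS and at 44.2, 77.1 and 72.7 CPM in LLS ewes, again with no overlap (0.93 ± 0.23, unadjusted p = 0.00202, adjusted p = 0.969 in edgeR). There ID3 was at 64.0, 50.6 and 61.7 CPM against 39.6, 27.9 and 51.6 CPM, and the groups overlapped (0.72 ± 0.26, unadjusted p = 0.0204 in edgeR).

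In theca-like cells 10.6% of all genes had no overlap, against 1 of the 8 tested. Stromal markers summed to 3008 to 4098 CPM in the theca-like cells of HLS and 4135 to 5124 CPM in those of LLS ewes, luteal markers to 1348 to 1581 and 1738 to 2776 CPM, and immediate early genes, which respond to tissue handling, to 8899 to 11464 and 11329 to 17363 CPM. Their part in the ID1 difference was not tested. With each cell named by its own marker score the ID1 difference in theca-like cells was 0.38.

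In GCs the 1 gene of 7 without overlap was BMP4, at 6.26, 4.65 and 2.94 CPM in HLS and 10.6, 7.65 and 9.41 CPM in LLS ewes, where 15.2% of all genes had none (-0.78 ± 0.39, unadjusted p = 0.0747 in edgeR). Endothelial markers in GCs summed to 99.9 to 142 CPM in HLS and 156 to 290.4 CPM in LLS ewes and pericyte markers to 29.0 to 57.4 and 59.1 to 87.4 CPM, and their part in the BMP4 difference was not tested. In stromal-like, perivascular-like and immune-like cells all of the genes tested overlapped, where 9.69%, 8.87% and 9.52% of all genes did not. BMP7 in endothelial-like cells gave -1.56 ± 0.78, and -0.29 without LLS2.

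The fitted log2 fold change of HLS over LLS was above 0 in 6 of 6 types for ID1 (0.23 to 0.93) and ID2 (0.11 to 0.61) and in 5 of 6 for ID3, whose mean CPM was higher in HLS ewes in 3 of 6. Leaving out 1 ewe turned ID1 in stromal-like (-0.03, without HLS1) and perivascular-like cells (-0.0041, without LLS1) and ID2 in stromal-like (-0.12, without HLS1) and immune-like cells (-0.02, without HLS3). The types of one ewe come from one library, so these are not 6 separate observations, and no single one of them passed the test. The share of all genes with the same sign in all 6 types is not given here, so these counts have no background. The test of whether the HLS and LLS difference changed between types called 0 genes in edgeR, 0.0% of 14529, with 312 genes and none of the 8 tested at an unadjusted p under 0.05. Without HLS2 and LLS1, ID1 in theca-like cells was 0.78 and BMP2 in endothelial-like cells -0.50, still short of the threshold.

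**Figure D5:**
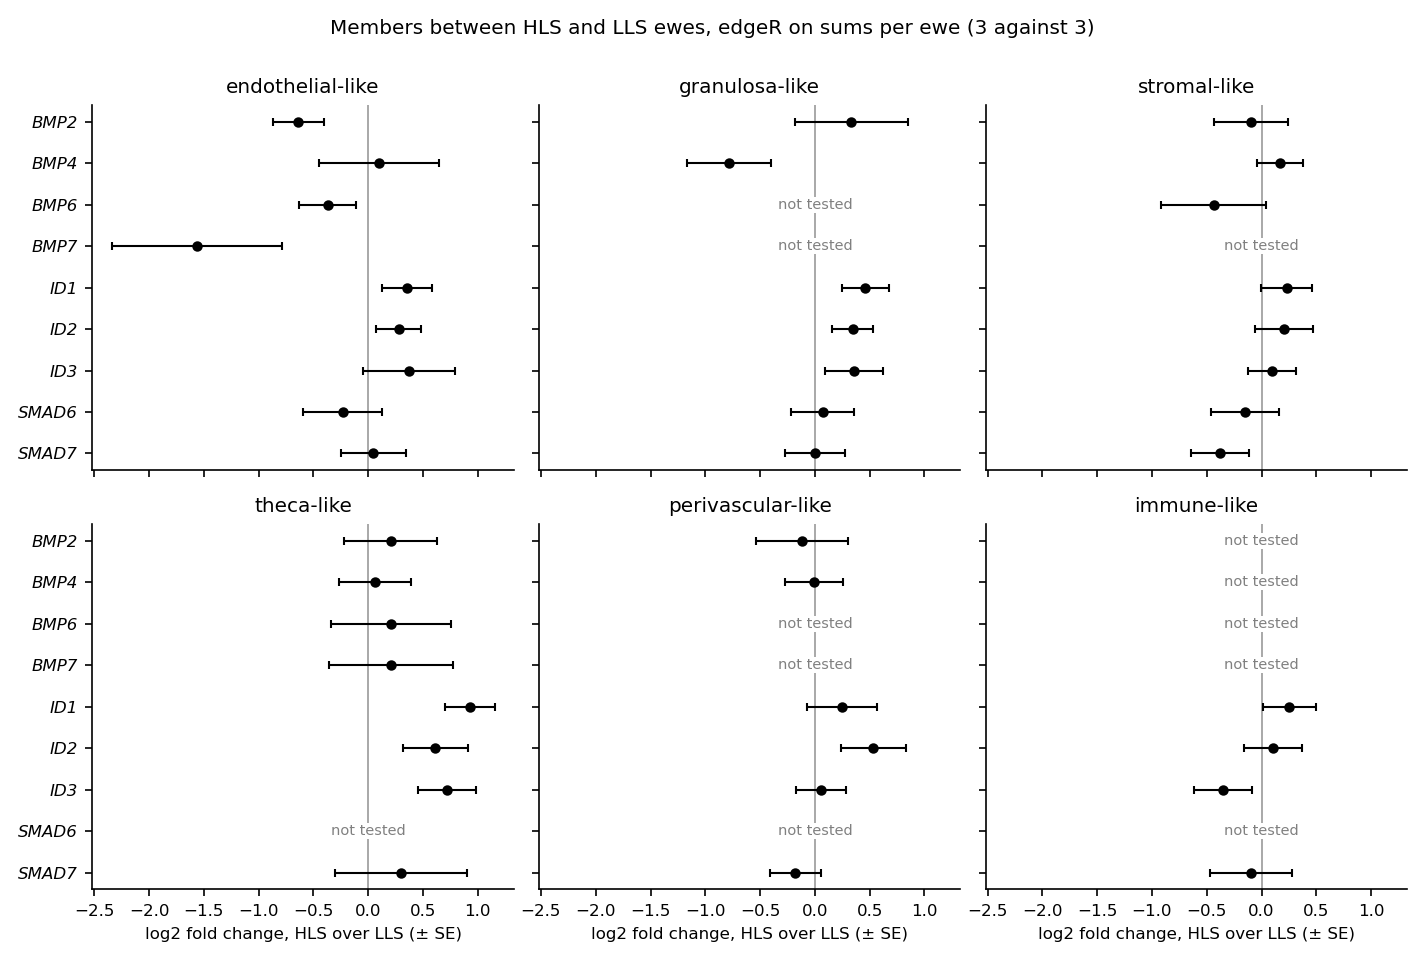
Difference between HLS and LLS ewes for each of the 9 genes and main type. The x axis gives the log2 fold change of HLS over LLS with its SE from edgeR (3 against 3 ewes), and genes that did not pass the filter are marked as not tested; no gene passed the threshold, and ID1 in theca-like cells (0.93 ± 0.23) lies farthest from 0 in terms of its SE.

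In the pathway list no gene passed between HLS and LLS either, with 0 of 23 to 49 genes tested per type called in edgeR and 0 to 7 at an unadjusted p under 0.05, the 7 of them among 41 in GCs, where 606 of 12121 genes were. The smallest p values in GCs were those of ID4 (0.80 ± 0.19, unadjusted p = 0.00263, adjusted p = 0.928 in edgeR), CRIM1 (-0.93 ± 0.24) and RGMB (0.65 ± 0.24). In immune-like cells the smallest was that of ENG (-1.01 ± 0.31, unadjusted p = 0.00869, adjusted p = 0.946 in edgeR).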

How the data were processed

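Each ovary gave 1 library (10x Genomics 3' v3, sequenced on an MGISEQ-T7). The authors aligned and counted the reads with Cell Ranger 5.0.0 and deposited whole-number UMI counts per gene and cell; the genome build was not given in the sources used here. Groups came from the sample labels, and the deposited counts were analysed as raw counts.

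Cells with at least 200 genes, 1000 UMIs and a log10 genes-per-UMI ratio of 0.7, at most 10% mitochondrial and 5% haemoglobin UMIs were kept. Doublets were scored against 2 simulated doublets per cell and 5.22% of cells were removed. Cells were clustered (2000 variable genes without the BMP genes, 30 principal components, 20 neighbours, resolution 0.8; leidenalg 0.10.2, scikit-learn 1.9.0) and named from marker lists. The naming rule was completed after the clusters were seen.

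Counts were summed per ewe and type (at least 10 cells) and tested with edgeR 4.0.16 (quasi-likelihood, TMM factors, filter on low counts, Benjamini-Hochberg adjustment over all genes, threshold 0.05, R 4.3.3). Comparisons between types had the ewe as a block, and HLS and LLS were compared within each type. DESeq2 1.42.0 was an alternative. The tests were tried on simulated data first. Of the pathway list, up to 5 genes with the largest change in each direction were named per comparison, and for HLS against LLS the 3 with the smallest p. For each of the 9 genes the 3 most correlated genes were taken. The 9 genes and the lists were chosen with earlier results of these data known. Intervals and floors (3 UMIs) cover counting error only. Each ewe was sampled once, so p-values for HLS against LLS set the size of a difference against the spread between ewes. Those between types set it against the spread left over the ewes and all types in the same fit.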

Additional observations from a re-analysis of the deposited data

Results flagged for a closer look

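In 4 of 54 levels (9 genes in 6 main types), 1 ewe stood apart from the other 5 by more than Dixon's 95% limit for 6 values, which chance gives in about 1 of 20. BMP7 in endothelial-like cells was at 8.07 CPM in LLS2, against 1.74 CPM in the next ewe, and LLS2 had 14.6% lymphatic cells among its endothelial-like cells, against 2.1% to 6.0% in the others. BMP7 in stromal-like cells was at 0.834 CPM in LLS2, from 7 UMIs, against 0.268 CPM in the next ewe. ID2 in GCs was lowest in LLS2 at 475 CPM (474.544), against 595 CPM in the next ewe. SMAD6 in theca-like cells was at 2.76 CPM in LLS1, from 3 UMIs among 1086022, against 0.452 CPM in the next ewe. The part of depth and of cell makeup in these values was not tested.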

How the results depend on the processing

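For HLS against LLS, none of the 42 results on single genes of the 9 was called under any of the 771 alternative values. Over all genes, where the count was 0, DESeq2 called 19 genes in immune-like cells, 5 in GCs, 4 in endothelial-like cells, 2 each in the stromal-like and perivascular-like ones and 5 in the interaction. Without a filter on low counts 171 genes were called in immune-like, 26 in theca-like and 5 in perivascular-like cells and 1 in the interaction. Without HLS2 and LLS1 it was 1 gene in stromal-like cells, 1 in immune-like cells and 1 in the interaction. Leaving out 1 ewe at a time gave 0 to 2 genes in stromal-like cells and in immune-like cells, 0 to 1 in theca-like cells and in perivascular-like cells, and 0 to 3 in the interaction. In immune-like cells ID1 was -0.13 with called doublets kept and ID3 was 0.12 with cells named by their own marker score.

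HLS and LLS ewes share replicate numbers. For each gene tested in a type, the deviation of an ewe's log2 CPM from the mean of its own group was taken. The 18 correlations of these deviations between same-numbered ewes ran from -0.42 to 0.35, 5 of them over 0.1 and in no type all of them. The deviations of a group cancel out for each gene, so the correlations of a type are tied to each other. Those over 0.1 were all of HLS3 with LLS3, which had 0.087 in theca-like cells. The labels do not say what the numbers stand for, and whether same-numbered ewes shared a step of handling was not tested. With the replicate block 2 genes were called in immune-like cells and 0 elsewhere, none of them among the 9. HLS2 and LLS1, whose replicate numbers differ, had a correlation of these deviations of 0.68 for their endothelial-like cells and 0.36 for the perivascular-like ones. For this pair it was 0.21 for immune-like cells, 0.18 for GCs, 0.10 for stromal-like and 0.035 for theca-like cells. What made this pair alike was not tested.

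Between types, 38 of 51 called results on single genes and 74 of 96 called pairs kept their call in every setting. The 51 include BMP7 and SMAD6 in lymphatic cells, which passed the filter through only 1 class. The share of all genes that kept their calls is not given here. The stromal-like count of 5 genes became 3 with cells named by their own marker score and 2 without the ewe as a block. Leaving out 1 ewe gave 3 to 5 genes there, 6 to 7 in endothelial-like, 5 to 7 in lymphatic (BMP7 and SMAD6 among them) and 2 to 3 in smooth muscle-like cells and 87 to 97 pairs. With theca-like joined to stromal-like cells, ID2 (-0.32), ID3 (-0.57) and SMAD6 (-0.50) turned lower in stromal-like cells. Without the GCG cluster, the difference in BMP2 was 0.39 for endothelial-like minus granulosa-like and -0.16 for granulosa-like minus stromal-like cells, and that in SMAD7 was -0.74 for granulosa-like minus theca-like cells. With cells named by their own marker score, stromal-like minus perivascular-like cells gave 0.052 for BMP4 and 0.18 for SMAD7. Without TMM factors the median of all genes moved by -0.25 in immune-like, 0.17 in perivascular-like, 0.14 in granulosa-like, 0.12 in lymphatic and 0.15 in macrophage-like cells, and by -0.19 and -0.16 for HLS against LLS in granulosa-like and theca-like cells. Without thinning, the type with the highest share of cells with a UMI was that with the highest CPM for 5 of the 9 genes, in place of 8. By Spearman's rho 8 of 27 most similar genes were shared. The cause of these changes was not tested. Depth limits smooth muscle-like, lymphatic and theca-like cells, where 3 UMIs stand for up to 10.8, 9.57 and 2.76 CPM. It also limits immune-like and perivascular-like cells, where 3 UMIs stand for up to 2.60 and 2.24 CPM.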

Other observations

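Epithelial-like cells reached 10 or more cells in 4 ewes (319 cells in these ewes). BMP2 was at 61.1, 57.3 and 40.8 CPM in LLS1, LLS2 and LLS3, against 23.8, 35.6 and 41.0 CPM in their perivascular-like cells, and listed at 0 in the 17 cells of HLS3. BMP4 was at 10.2 to 24.1 CPM in these 4 ewes and BMP7 at 0 to 10.2 CPM.

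Over the 36 sums of 6 types and 6 ewes and 11165 genes, the genes whose log2 CPM followed each of the 9 genes most closely were named, as a description: sums of one ewe share a library and sums of one type share their cells. BMP2 was followed by DYNC1I2, LOC105602274 and NET1 (Pearson's r of 0.89 each), BMP4 by MAST4 (0.90), CAV2 and NFIB (0.89 each), and BMP6 by ELN, IGFBP4 and HOXD9 (0.82 each). BMP7 had the weakest matches, STC1 (0.77), LOC101115527 (0.74) and CLIC5 (0.73). ID1 was followed by S100A16 (0.89), CNIH4 and DOK5 (0.88 each), ID2 by SLC38A1 (0.87), VTI1B (0.85) and BACH2 (0.84), and ID3 by MUSTN1 (0.91), CWC27 (0.88) and SLC25A37 (0.87). SMAD6 was followed by ENOX1 (0.90), SH3BP4 and ARHGAP23 (0.88 each), and SMAD7 by AGO2 (0.88), RAP1B and STK40 (0.84 each).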
